A study of Homo sapiens with 6 samples.

Results

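Retinoic acid, the active form of vitamin A, is made inside cells in a pair of oxidation steps. Retinol dehydrogenases such as RDH10 turn retinol into retinal, and the aldehyde dehydrogenases ALDH1A1, ALDH1A2 and ALDH1A3 oxidise retinal to retinoic acid. DHRS3 works against this by reducing retinal back to retinol, CYP26 enzymes degrade retinoic acid, and CRABP2 carries it to the nucleus, where its receptors RARA, RARB and RARG bind DNA together with RXR partners. Aldehyde dehydrogenase activity is widely used to mark stem-like cells in ovarian carcinoma, and ALDH1A enzymes account for much of it in such assays.

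Transcripts of 9 genes of this pathway and its enzyme family (ALDH1A1, ALDH1A2, ALDH1A3, ALDH3A1, CYP26B1, RARA, RARG, DHRS3 and CRABP2) were followed in UWB1.289 cells, among 63677 genes in the table of read counts. The 9 genes, called members here, were chosen by symbol with the Olaparib against DMSO differences of these same samples already known, so their differences are given below as a description, with no p-value and with no weight placed on whether they met a criterion. UWB1.289 is a human ovarian carcinoma line. Its genotype is WT in the labels, whereas the study introduces the line as BRCA1-deficient, a state that treated and control cells share. Cells received the PARP inhibitor Olaparib (3 samples) or the vehicle DMSO alone (3 samples) for 24 h. Dishes were prepared separately for each condition, and the methods describe the replicates as independent. Olaparib was used at 4 µM by the sample labels, as also in the methods, although the design text gives 10 µM. Libraries held 35360458 to 39640775 counts, and replicates of a group differed by more than counting noise (chi-square per degree of freedom 1.81 to 4.11). Of 9 epithelial and Müllerian markers, 8 were measured and WT1 was not, with 8 counts in all. Of 8 markers of blood, endothelial and stromal cells, PECAM1 had no count and CD3E and PDGFRB had 10 or fewer in total.

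The classical retinoic acid response element was sought close to the transcript starts of these genes. This element, DR5, is a direct repeat of 2 hexamers with 5 bases between them, each hexamer being AGGTCA, in which the first base may also be G and the third T. Windows from 250 bases before to 50 bases after annotated RefSeq transcript starts (GRCh38.p14) were searched on both strands. Sequence outside these windows was not searched, so an element elsewhere would be missed. A DR5 was present in 31 of 35116 windows (0.0883%). A window was available for 42 of the 59 retinoid and target genes listed, and for 8 of the 9 members (13 windows, none for ALDH3A1). No member window held a DR5. The listed genes with one were RARB and CYP26A1, whose windows are shown with the DR5 in capitals, beside that of ALDH1A3, the member with the largest difference among the abundant ones, with its CCAAT and GGGCGG boxes in capitals on either strand. Overlapping GGGCGG boxes form 1 run of capitals.

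ALDH1A3, chr15:100879581-100879880, plus strand: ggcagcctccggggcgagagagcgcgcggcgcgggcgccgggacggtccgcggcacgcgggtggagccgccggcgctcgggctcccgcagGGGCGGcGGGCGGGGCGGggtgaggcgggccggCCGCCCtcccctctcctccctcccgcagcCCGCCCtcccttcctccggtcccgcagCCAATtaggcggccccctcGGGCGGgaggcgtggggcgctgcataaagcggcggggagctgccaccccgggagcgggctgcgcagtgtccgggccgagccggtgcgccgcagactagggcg
RARB, chr3:25428013-25428312, plus strand: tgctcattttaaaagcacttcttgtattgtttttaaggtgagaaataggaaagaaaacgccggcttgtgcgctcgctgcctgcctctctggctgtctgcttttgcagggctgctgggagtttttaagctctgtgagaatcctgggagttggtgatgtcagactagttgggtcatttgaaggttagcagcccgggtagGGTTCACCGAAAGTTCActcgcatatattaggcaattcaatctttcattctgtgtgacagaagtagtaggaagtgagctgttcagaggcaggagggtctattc
CYP26A1, chr10:93073643-93073942, plus strand: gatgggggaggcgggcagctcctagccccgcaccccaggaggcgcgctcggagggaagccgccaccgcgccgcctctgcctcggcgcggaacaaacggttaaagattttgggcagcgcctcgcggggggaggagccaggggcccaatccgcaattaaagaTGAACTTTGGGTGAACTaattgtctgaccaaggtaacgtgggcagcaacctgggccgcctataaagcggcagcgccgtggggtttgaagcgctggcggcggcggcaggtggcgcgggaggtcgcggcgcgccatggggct

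Read from its own strand, the RARB element is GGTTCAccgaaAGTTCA, at -53 to -37 relative to the start base, and the CYP26A1 element is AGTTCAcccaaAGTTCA on the minus strand, at -90 to -74. The ALDH1A3 window was 81.7% G and C and held a CCAAT box, found in 34.6% of all windows, and GGGCGG boxes, found in 45.0%. Single hexamers were common, with AGGTCA in 13.8% of all windows, GGTTCA in 8.62%, AGTTCA in 10.4% and GGGTCA in 14.1%. Among members, AGGTCA occurred in a window of RARA and of DHRS3, GGTTCA in one of DHRS3 and of CRABP2, AGTTCA in one of ALDH1A2 and GGGTCA in one of RARA.

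ALDH1A3 (ENSG00000184254, chromosome 15, 100877714 to 100916626) was the most abundant transcript of the 3 enzymes that make retinoic acid. Levels of different genes were compared as CPM per kilobase of annotated exon (CPKM), averaged over the 6 samples. The level of ALDH1A3 was 3.39 CPKM (range 3.01 to 3.89), against 0.0751 for ALDH1A2 (0.0619 to 0.0898) and 0.0458 for ALDH1A1 (0.0277 to 0.0772). ALDH1A3 thus made up 95.7% to 96.9% of the CPKM summed over the 3 enzymes in every sample. This share did not separate the groups, with 96.5% ± 0.707 (SD, n = 3) after Olaparib and 96.7% ± 0.170 after DMSO.

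The ALDH1A3 transcript was higher in all 3 treated samples. After scaling for library size it had 776, 709 and 749 normalized counts in treated cells and 604, 601 and 624 in controls. The groups did not overlap, and the lowest treated sample lay above the highest control. The means were 745 ± 33.4 and 610 ± 12.8 (SD, n = 3 each), a difference of 22.2%, or 0.29 on the log2 scale with a standard error (SE) of 0.051. Counting alone would give SDs of 27.3 and 24.7 at these levels, below the observed SD in treated cells and above that in controls. In bulk RNA, more ALDH1A3 RNA per cell and more cells that transcribe it cannot be told apart.

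ALDH1A3 was the 1 member that met the criteria applied to all genes, namely an adjusted p below 0.05 in the quasi-likelihood test of edgeR together with a change of more than 1.2-fold either way, which is 0.26 on the log2 scale. These criteria were met by 262 of 21729 genes tested (1.21%). With the adjusted p alone it was again 1 of the 9 members, and 730 genes (3.36%). Groups that did not overlap were found in 3 of 9 members (ALDH1A3, CRABP2 and RARG) and in 19.3% of genes tested. Since the members were chosen with this contrast known, nothing is read from these shares. Without Olaparib replicate 1 the log2 difference of ALDH1A3 was 0.26, just under the fold criterion.

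**Figure D1:**
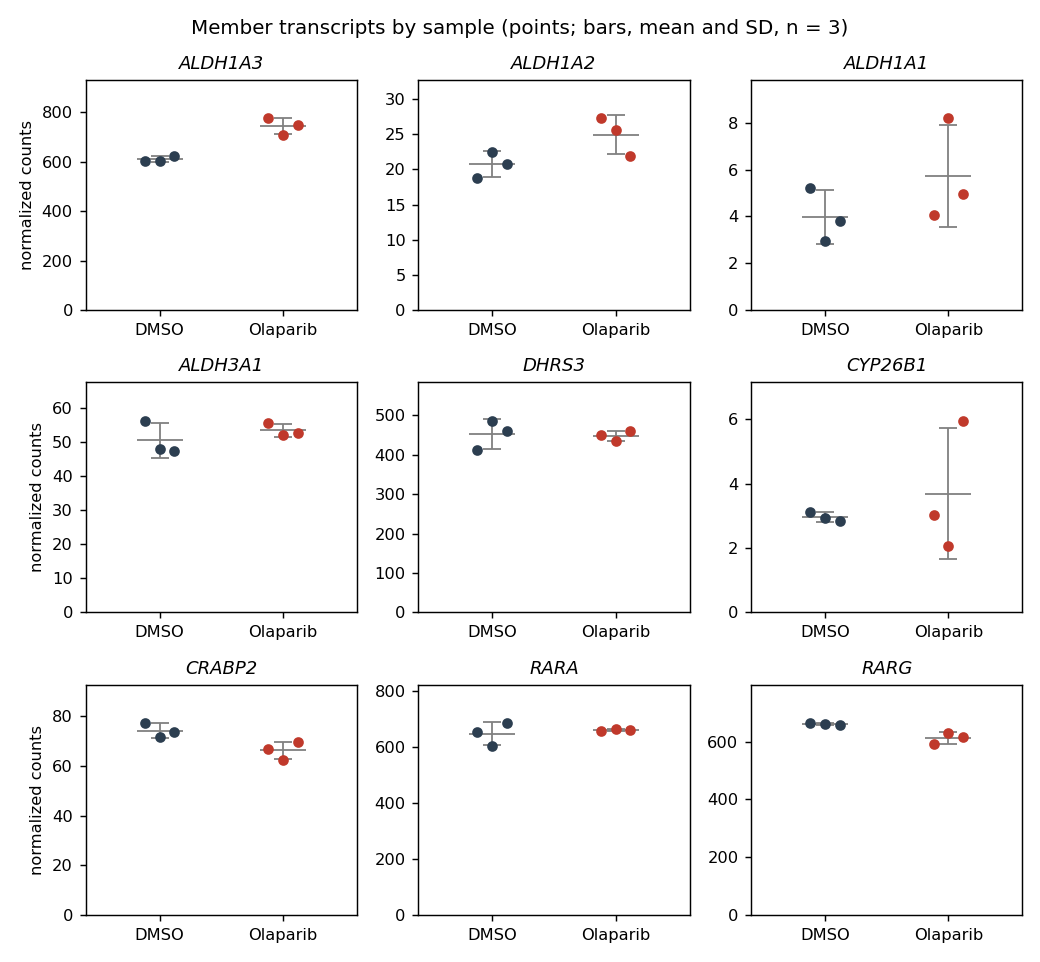
Normalized counts of the 9 member transcripts in each sample, with DMSO in dark blue and Olaparib in red. Grey bars give the mean and SD (n = 3) and each panel has its own linear axis from 0. The 3 Olaparib samples of ALDH1A3 (709 to 776) lie above the 3 DMSO samples (601 to 624), while those of RARG and CRABP2 lie below.

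Other transcripts lie over part of the ALDH1A3 exons. The antisense gene ALDH1A3-AS1 and a same-strand transcript that had no counts together cover 33.3% of its exon bases. The setting for strand in the authors' counting is not given in the sources used here. ALDH1A3-AS1 had 88, 74 and 84 counts in the Olaparib samples and 86, 88 and 89 in the DMSO samples. These are counts before scaling, and they were below those of ALDH1A3 in every library. The part of the overlapping transcripts in the ALDH1A3 difference was not tested.

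A marker of another cell type moved with ALDH1A3. VWF, which marks endothelial cells, had 63.7, 69.7 and 68.6 normalized counts in treated cells and 39.7, 42.1 and 43.6 in controls. The log2 difference was 0.68 (SE 0.16, BH-adjusted p = 0.0106 in edgeR, where BH stands for Benjamini-Hochberg). It was 1 of 5 such markers tested of 8 listed that passed, against 3.36% of all genes tested. The list summed to 221 to 223 normalized counts after Olaparib and 169 to 194 after DMSO, with PECAM1 at 0. PAX8, the Müllerian lineage factor, was the 1 of 8 epithelial and Müllerian markers tested that passed, with a log2 difference of 0.10 (BH-adjusted p = 0.0399 in edgeR) that was lost in 6 of 13 alternative settings. The part of these markers in the ALDH1A3 difference was not tested.

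The other aldehyde dehydrogenases among the members were low. ALDH1A2 (ENSG00000128918, chromosome 15), which makes retinoic acid in embryonic mesoderm, had 27.3, 25.6 and 21.9 normalized counts in treated cells and 18.8, 22.5 and 20.8 in controls. These groups overlapped, and the log2 difference was 0.26 with an SE of 0.24. ALDH1A1 (ENSG00000165092, chromosome 9), the isoform common in liver and many stem-like cells, had 3 to 8 counts in each library. Its summed counts were 17 after Olaparib and 12 after DMSO, a ratio of 1.45 at equal depth whose 95% interval for counting error alone runs from 0.651 to 3.32. At this depth no difference in ALDH1A1 could be resolved.

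ALDH3A1 (ENSG00000108602, chromosome 17), an enzyme for aromatic and medium-chain aldehydes best known from cornea, had 55.6, 52.3 and 52.7 normalized counts after Olaparib. In the DMSO samples it had 56.4, 48.0 and 47.4. The groups overlapped, with a log2 difference of 0.084 (SE 0.16). Its level was 0.359 CPKM, between that of ALDH1A3 and that of ALDH1A2.

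DHRS3 (ENSG00000162496, chromosome 1), the retinal reductase, was transcribed at 3.43 CPKM, a level that overlapped that of ALDH1A3. It had 450, 435 and 460 normalized counts in treated cells and 412, 487 and 460 in controls. The DMSO samples bracketed the treated ones, and the log2 difference was -0.016 with an SE of 0.062. The ratio of ALDH1A3 to DHRS3, each per kilobase, needs no scaling between libraries. It was 1.14, 1.08 and 1.07 after Olaparib and 0.967, 0.813 and 0.895 after DMSO. Every treated ratio was above every control ratio. With DHRS3 nearly unchanged, this largely restates the ALDH1A3 difference and adds no separate evidence. Which of these transcripts was the more abundant depends on annotated exon lengths and is not resolved.

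CRABP2 (ENSG00000143320, chromosome 1), the retinoic acid carrier, had 66.8, 62.5 and 69.5 normalized counts in treated cells and 77.3, 71.5 and 73.9 in controls. All treated samples lay below all controls. The mean changed by -10.7%, and the log2 difference of -0.16 came with an SE of 0.14. CRABP2 counts were few enough that counting alone gives SDs of 8.14 and 8.62, larger than the 3.53 and 2.91 observed.

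CYP26B1 (ENSG00000003137, chromosome 2), the retinoic acid hydroxylase among the members, had 3, 2 and 6 counts in the Olaparib libraries and 3 in each DMSO library. All but 1 library were therefore at or under the floor of 3 counts. The ratio of the sums, 11 against 9 counts, was 1.25 with a 95% counting interval of 0.470 to 3.41, so no difference could be resolved.

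The receptors among the members were transcribed at similar levels. RARA (ENSG00000131759, chromosome 17, 40309180 to 40357643) had 657, 665 and 660 normalized counts in treated cells and 652, 604 and 685 in controls. These groups overlapped, with a log2 difference of 0.030 and an SE of 0.052. For RARA, 21.4% of the exon bases overlap other genes, among them RARA-AS1 with 27 to 47 counts per library. RARG (ENSG00000172819, chromosome 12, 53210567 to 53232980), the receptor form prominent in skin, had 591, 632 and 618 normalized counts after Olaparib. In the DMSO samples RARG had 665, 663 and 658, so every treated sample was below every control. The mean of RARG changed by -7.28%, a log2 difference of -0.11 with an SE of 0.050. The ratio of RARG to RARA per kilobase was 0.832, 0.878 and 0.867 after Olaparib against 0.943, 1.02 and 0.888 after DMSO.

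**Figure D2:**
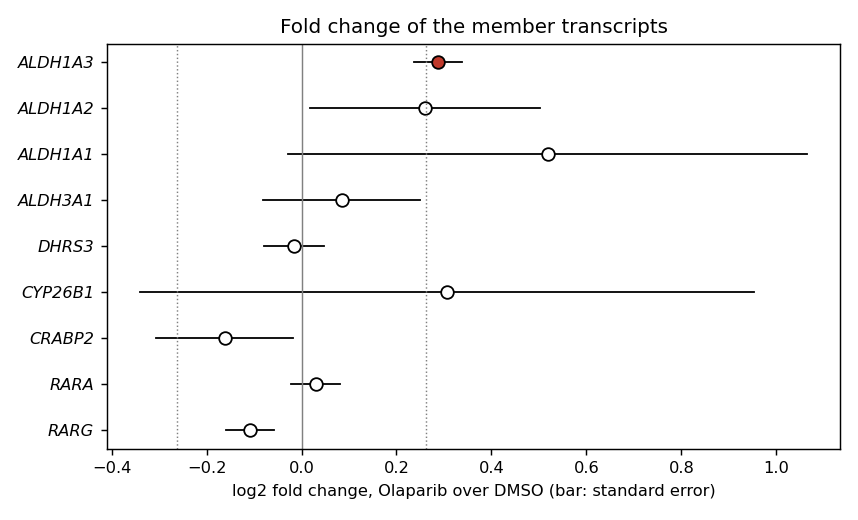
Log2 fold change of each member, Olaparib over DMSO, with a bar of 1 SE on each side. Dotted lines mark log2(1.2) in each direction and the filled point is the gene that met the criteria. Since the members were chosen with this contrast known, nothing is read from the fill. ALDH1A3 sits at 0.29 with a short bar, while the bars of ALDH1A1 and CYP26B1 are the longest.

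Ordered by level over the 6 samples, RARA came first with 3.68 CPKM, followed by DHRS3 with 3.43, ALDH1A3 with 3.39 and RARG with 3.32. The sample ranges of neighbours among these genes overlapped, so their order is not resolved. CRABP2 followed with 1.74 CPKM (1.54 to 1.91) and ALDH3A1 with 0.359 (0.327 to 0.389), each clear of its neighbours. The ranges of ALDH1A2 and ALDH1A1 overlapped, as did those of ALDH1A1 and CYP26B1 (0.0184 CPKM, 0.0113 to 0.0329). ALDH1A3 was at 3.06 ± 0.0641 CPKM after DMSO, below RARA, DHRS3 and RARG. After Olaparib it was at 3.73 ± 0.168, beside RARA at 3.72 ± 0.0251. Exon length was that of all annotated isoforms together, which lowers the CPKM of genes with many unused exons. Together the members took 0.00670% to 0.00706% of each library.

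**Figure D3:**
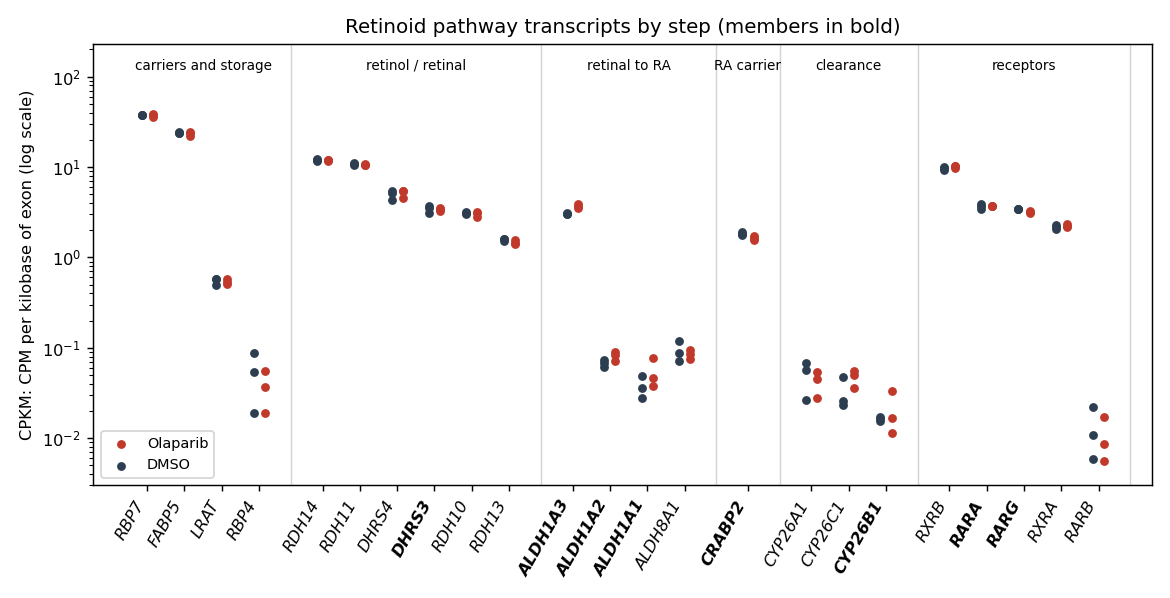
Level of retinoid pathway transcripts in each sample, in CPKM on a log axis, grouped by step of the pathway (RA, retinoic acid). Members are in bold, DMSO points are dark blue and Olaparib points red. ALDH1A3 stands at 3.01 to 3.89 while ALDH1A2, ALDH1A1 and the CYP26 genes lie below 0.1.

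The rest of the pathway was examined in 38 other genes, of which 26 had more than 10 counts in total. All gene lists here were chosen with earlier results of these data known, so the p-values of their genes are descriptive. Of these 26, 2 rose and 1 fell past a BH-adjusted p of 0.05, taken over all genes by edgeR, against 3.36% of all genes tested. The median log2 fold change of the 26 was -0.015, against -0.0042 over all genes tested. The genes that rose, NCOA3 and PPARD, belong to the receptors and cofactors, and the one that fell, RDH16, to the enzymes between retinol and retinal.

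Carriers and storage genes did not pass the test in any of the 5 measured of 9 listed (1 at an unadjusted p under 0.05, against 14.8% of all genes tested, and 0 by DESeq2 and by limma voom). Among the most abundant were RBP7, a cellular retinol-binding protein, at 37.6 CPKM and FABP5, a lipid carrier that can take retinoic acid to PPARD, at 23.6. RBP7 had log2 fold change -0.011 (SE 0.045) and FABP5 -0.030 (SE 0.043). LRAT, which esterifies retinol for storage, had 152 ± 8.72 normalized counts in treated cells and 155 ± 12.5 in controls. CRABP1, RBP2, STRA6 and TTR had 10 or fewer counts in total.

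Enzymes between retinol and retinal were measured for 9 of 16 genes, and 1 passed, against 3.36% of all genes tested. RDH14 and RDH11, retinal reductases, were the most abundant at 11.9 and 10.7 CPKM, with log2 fold changes of -0.011 and -0.021. RDH10, the main retinol dehydrogenase of embryonic retinoic acid synthesis, had 610 ± 41.0 normalized counts in treated cells and 620 ± 12.7 in controls, a log2 difference of -0.024 (SE 0.054). RDH16, a liver enzyme for retinol and steroids, fell on the basis of very few reads. It had 1, 1 and 2 counts in the Olaparib libraries and 4, 7 and 11 in the DMSO libraries, a ratio of 0.186 at equal depth (95% counting interval 0.0465 to 0.547). Its adjusted p in edgeR was 0.0447, in limma voom 0.0708, with 0.0325 to 0.223 over the alternatives that gave a value, which DESeq2 did not. Without any 1 of the Olaparib replicates, or without DMSO replicate 2 or 3, it did not pass. ADH1C, ADH4, ADH7, BCO1, DHRS9, RDH12 and RPE65 had 10 or fewer counts in total.

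Genes for retinal oxidation and retinoic acid clearance outside the members were all near the limit of detection. CYP26A1, which clears retinoic acid and carries a DR5 in the window above, had 5, 3 and 6 counts in the Olaparib libraries and 6, 3 and 8 in the DMSO libraries. CYP26C1 had 4 to 9 counts per library and ALDH8A1, which oxidises 9-cis-retinal, 8 to 13. By edgeR 0 of these 3 genes passed, against 3.36% of all genes tested (0 at an unadjusted p under 0.05, against 14.8%). By DESeq2 and by limma voom 0 passed.

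Among receptors and cofactors, 9 of 10 genes were measured and 2 rose past an adjusted p of 0.05 in edgeR. That threshold was passed by 3.36% of all genes tested, in either direction. RXRB was at 9.91 CPKM and RXRA at 2.21, whereas RXRG had 4 counts in total. RXRA had log2 fold change 0.048 (SE 0.049) and RXRB 0.059 (SE 0.044). RARB, the receptor with the DR5 shown above, had 6, 3 and 2 counts in the Olaparib libraries and 2, 8 and 4 in the DMSO libraries, at most 0.323% of the CPKM of the 3 RAR genes in any sample. NCOA3, a coactivator of nuclear receptors, rose from 3471 ± 117 to 3930 ± 139 normalized counts, a log2 difference of 0.18 (SE 0.037, BH-adjusted p = 0.00335 in edgeR, and 0.0629 without DMSO replicate 3). PPARD, a nuclear receptor that can respond to retinoic acid delivered by FABP5, rose from 758 ± 32.3 to 862 ± 59.2, a log2 difference of 0.18 (SE 0.052). Its adjusted p in edgeR was 0.0404, with 0.0122 to 0.237 over the alternatives, and it did not pass with DESeq2 (0.106), limma voom (0.0640), upper-quartile scaling (0.0573) or without Olaparib replicate 2 or 3 or DMSO replicate 1 or 2. Both rises were smaller than the fold criterion.

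Of 16 genes known to respond to retinoic acid, 14 were measured, 2 rose and 0 fell past a BH-adjusted p of 0.05 in edgeR, which 3.36% of all genes tested passed. Their median log2 fold change was -0.016, and 4 of the 16 are also in the pathway lists. This list too was chosen with earlier results of these data known, so its p-values are descriptive. TGM2, tissue transglutaminase, was the most abundant at 138 CPKM and rose from 38168 ± 1246 to 44120 ± 1117 normalized counts, a log2 difference of 0.21 (SE 0.028, BH-adjusted p = 7.15e-06 in edgeR). In all 13 alternatives its adjusted p stayed under 0.05. GPRC5A, an orphan receptor induced by retinoic acid in many epithelial lines, rose from 4443 ± 149 to 4979 ± 91.5 normalized counts, a log2 difference of 0.16 (SE 0.034, BH-adjusted p = 0.00311 in edgeR, and 0.0657 without DMSO replicate 3). CYP26A1 and RARB, the listed genes with a DR5 in a searched window, stayed at 2 to 8 counts per library. STRA6 and CDX1 had 10 or fewer in total.

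The aldehyde dehydrogenase family has 15 further genes outside the members, and all 15 were measured. ALDH9A1 at 27.7 CPKM and ALDH18A1 at 21.5 were the most abundant, both well above ALDH1A3. Their log2 fold changes were -0.057 (SE 0.037) and 0.017 (SE 0.039). By edgeR 0 of the 15 passed an adjusted p of 0.05 (3.36% of all genes tested), with 4 at an unadjusted p under 0.05 (14.8% of all genes tested), and 1 passed with DESeq2 and 1 with limma voom. The median log2 fold change of the 15 was 0.038, and their range was -0.73 to 0.21.

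**Figure D4:**
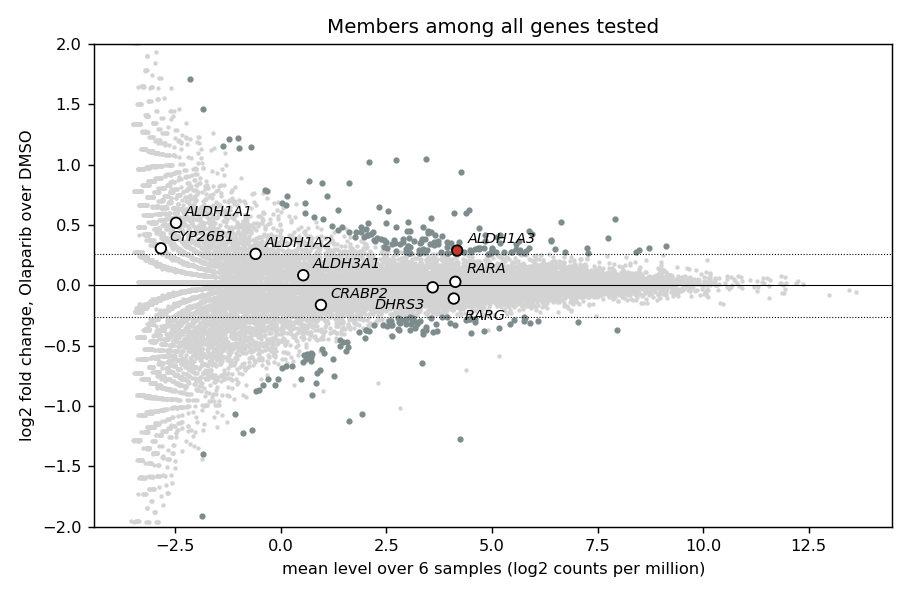
Log2 fold change, Olaparib over DMSO, against mean level over the 6 samples (log2 CPM) for all genes tested, in light grey, with genes that met the criteria in dark grey. Members are circled and named, dotted lines mark the fold criterion, and the filled circle is ALDH1A3 at 0.29, which met the criteria. Nothing is read from the fill, since the members were chosen with this contrast known. The axis leaves out 78 genes beyond 2 in either direction.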

How the data were processed

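RNA of 6 cultures was sequenced from stranded poly(A) libraries. The authors trimmed adapters with Trimmomatic, mapped reads to GRCh38 with STAR, flagged PCR duplicates (Picard) and counted reads over genes (featureCounts), and the deposited values are whole-number counts per gene without normalization. Whether duplicates were removed is not given in the sources used here. Samples were grouped by their labels. Genes with more than 10 counts in total were kept. Normalization was by TMM, and treated and control samples were compared by the edgeR quasi-likelihood F test, unblocked, with p-values adjusted over all genes (Benjamini-Hochberg, BH). Normalized counts are counts scaled to the geometric mean of the effective library sizes (37411522). Names, positions and exon lengths came from GENCODE release 44, which held 81.9% of the identifiers and 96% of those tested.

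The scripts, tested on simulated counts, used edgeR 4.0.16, DESeq2 1.42.0 and limma 3.58.1 under R 4.3.3. The members and all gene lists were chosen with earlier results of these data known. Besides the members, the text names listed genes with an adjusted p under 0.05, those at or under 10 counts, RARB, the RXR genes, CYP26A1, CYP26C1, RDH10 and LRAT, the 2 most abundant of each retinoid, target and aldehyde dehydrogenase list, and the 5 genes closest to ALDH1A3 in pattern. Some genes that this rule names are not reported here. Alternatives were DESeq2, limma voom, 2 other scalings, 2 other filters, other thresholds, a replicate block and leaving out each sample.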

Additional observations from a re-analysis of the deposited data

How the results depend on the processing

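Over 13 alternatives, the log2 difference of ALDH1A3 lay between 0.26 and 0.32, and it met both criteria in 12 of them. Since ALDH1A3 was chosen with this contrast known and the alternatives reuse the same samples, nothing is read from that count. The number of genes that met the criteria was 262, against 141 with DESeq2, 10 with an absolute log2 fold change above 1.5, 730 without a fold criterion and 178 to 237 with a sample left out. Of the 3 other pathway genes, 1 passed with DESeq2, 1 with limma voom, 1 when the fold criterion was added and 1 to 2 with a sample left out. Of the 2 target genes, 0 met the fold criterion as well, and 1 to 2 passed with a sample left out. Against 0 further aldehyde dehydrogenases, 1 passed with DESeq2 (ALDH7A1), 1 with limma voom (ALDH1L2), 1 with upper-quartile scaling and 1 with filterByExpr (ALDH3A2 in both), 2 without a low-count filter and 0 to 2 with a sample left out, names chosen after their values were seen. With the replicate number as a block, 291 genes met the criteria and 3 further aldehyde dehydrogenases passed (ALDH1L2, ALDH3A2 and ALDH7A1), as did 3 target genes, the added one being MEIS2, which was lower (-0.21, adjusted p = 0.0352 in edgeR). Deviations of same-numbered samples correlated at -0.072, 0.13 and -0.11, and those of differently numbered samples at -0.191 to 0.245. These deviations are taken from means of 3 samples and cannot decide whether the numbers pair the samples. CYP26B1 ranged from -0.21 to 0.58 with a sample left out. With a sample left out, log2 differences turned sign for the members RARA (-0.018 to 0.072) and DHRS3 (-0.076 to 0.039), and among other genes that had not passed for CYP26A1 (-0.55 to 0.046), LRAT (-0.095 to 0.011, with 0.010 in another), RARB (-0.84 to 0.30) and RDH10 (-0.059 to 0.029). The causes were not tested. Depth limits ALDH1A1, CYP26B1, RARB and CYP26A1, which had 29, 20, 25 and 31 counts over all libraries. DESeq2 called 99 genes higher and 42 lower, a split of 70.2% higher against 59.9% in edgeR (157 and 105).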

Other observations

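Genes whose pattern over the 6 samples was among the 5 most like that of ALDH1A3, by Pearson correlation of log2 normalized counts among 11996 genes averaging 100 counts or more, were ARL6IP1 (r = 0.996), ILF2 (r = 0.994), HMMR (r = 0.993) and BUB1 (r = 0.989). With 6 samples high values of r are common, and 410 genes (3.42%) had r above 0.9, a lower cut than the values named. The points share their libraries and the treatment difference. HMMR and BUB1 are mitotic genes, and their log2 fold changes were 0.24 and 0.18.

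A DR5 in a promoter window was found for 29 genes, of which 18 were matched by symbol to the count table and 12 had more than 10 counts in total. Of these 12, 1 passed an adjusted p of 0.05 (3.36% of all genes tested) and 0 met the fold criterion as well (1.21%). Their median log2 fold change was -0.022, with a range of -0.31 to 0.62. The gene that passed, named after its value was seen, was CYB5R2, a cytochrome b5 reductase, with a log2 difference of 0.18 (SE 0.050, BH-adjusted p = 0.0290 in edgeR).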
